A study of Rattus norvegicus with 6 samples.

Results

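The 4 mature miRNAs rno-miR-296-5p, rno-miR-296-3p, rno-miR-298-5p and rno-miR-298-3p (named without the rat prefix rno from here on) were examined in small RNA libraries of rat cortical neurons that had received BDNF or vehicle. They were chosen by name, as the products of both hairpins beside the Gnas gene, and because both arms of miR-296 had been seen to be higher after BDNF in these same libraries. Values for BDNF against control are therefore given as a description, without a test. All 4 are among the 649 miRNAs listed for each library, and all 4 passed the filter of 10 RPM (reads scaled to a common library total) in the mean of either condition, as did 336 miRNAs in all. The cultures came from Sprague-Dawley embryos of both sexes at embryonic day 18 and were used at 7 days in vitro. Control cultures (n = 3) received 0.1% BSA for 20 min, and BDNF cultures (n = 3) received brain-derived neurotrophic factor at 100 ng/ml for the same time. All cultures had been given fluorodeoxyuridine with uridine to stop the division of non-neuronal cells. The replicates are described in the methods as biological replicates and are numbered 1 to 3 in both conditions. Each library held between 10374120 and 12533029 assigned reads, so that 10 RPM stood for 103.7 to 125.3 reads. The 4 miRNAs together took between 0.142% and 0.194% of the reads of a library.

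A miRNA is cut from one side of a hairpin precursor by Dicer, with TRBP as a partner protein. The product of the 5′ side is called 5p and that of the 3′ side 3p, and either can be loaded into Argonaute, where its seed, bases 2 to 8, pairs with target mRNAs. The Gnas domain is an imprinted region, in which some transcripts are made from the maternal and others from the paternal copy, and in mouse the hairpins of miR-296 and miR-298 are read from an antisense transcript of the paternal copy. MiR-296 is known from endothelial cells, where it promotes angiogenesis, and from embryonic stem cells, where miR-296 acts on the mRNA of the transcription factor Nanog. MiR-298 is known to bind the mRNAs of Bace1 and App, the secretase and the precursor protein from which amyloid peptides are made. BDNF is a growth factor for neurons whose receptor is TrkB. Read counts do not show which parental copy a miRNA came from.

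The mature sequences are shown because the seeds decide which targets each arm can pair with, and because the base composition is drawn on further below. They were taken from RefSeq on build GRCr8, all from the minus strand of chromosome 3, and the seed is in capitals.
miR-296-5p: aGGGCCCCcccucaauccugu
miR-296-3p: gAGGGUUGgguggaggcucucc
miR-298-5p: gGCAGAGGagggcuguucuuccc
miR-298-3p: aGGAACUAgccuucucucugcu
The 4 seeds differ from each other, and none was shared with any of the 692 other mature rat sequences in the RefSeq table. The nearest other mature sequence was 8 edits away for miR-296-5p and miR-298-3p and 9 edits away for miR-296-3p and miR-298-5p. GC content was 66.7% in miR-296-5p, 68.2% in miR-296-3p, 65.2% in miR-298-5p and 50% in miR-298-3p, against a median of 47.8% over all mature rat sequences. Of the 307 tested miRNAs with a sequence, 8 had a higher GC content than miR-296-5p and 4 a higher one than miR-296-3p.

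The hairpins are shown to place the arms, which are in capitals. Mir296 lies at chr3:183470069-183470146 and Mir298 at chr3:183470522-183470603, both on the minus strand of GRCr8, with 375 bases between them.
Mir296: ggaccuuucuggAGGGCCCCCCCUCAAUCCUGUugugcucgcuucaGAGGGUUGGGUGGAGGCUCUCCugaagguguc
Mir298: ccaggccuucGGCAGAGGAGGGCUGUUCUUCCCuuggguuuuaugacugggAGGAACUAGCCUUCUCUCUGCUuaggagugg
In the RefSeq gene table their neighbours are Npepl1 on one side and Gnas on the other. The stretch between the arms was 13 bases in Mir296 and 18 bases in Mir298, against a median of 16 bases over 263 rat hairpins with both arms. The folding energy computed with RNAfold was -40.5 kcal/mol for Mir296 and -47.8 kcal/mol for Mir298, with a median of -37.5 kcal/mol over the same hairpins.

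In control neurons the levels followed the order miR-298-5p, miR-296-3p, miR-298-3p and miR-296-5p. MiR-298-5p had 710 ± 151 RPM (SD, n = 3), rank 92 among the 336 tested miRNAs. MiR-296-3p had 418 ± 54 RPM (SD, n = 3), rank 116, and miR-298-3p followed with 262 ± 53 RPM (SD, n = 3). MiR-296-5p had 173 ± 30 RPM (SD, n = 3), rank 158. The control libraries of neighbours in this order did not overlap, and the same order held within each of the 6 libraries. In BDNF libraries the lowest pair overlapped, with 177 to 258 RPM for miR-296-5p and 209 to 318 RPM for miR-298-3p. Adapters join sequences with unequal efficiency and reads are not independent molecules, so the order is one of reads.

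**Figure D1:**
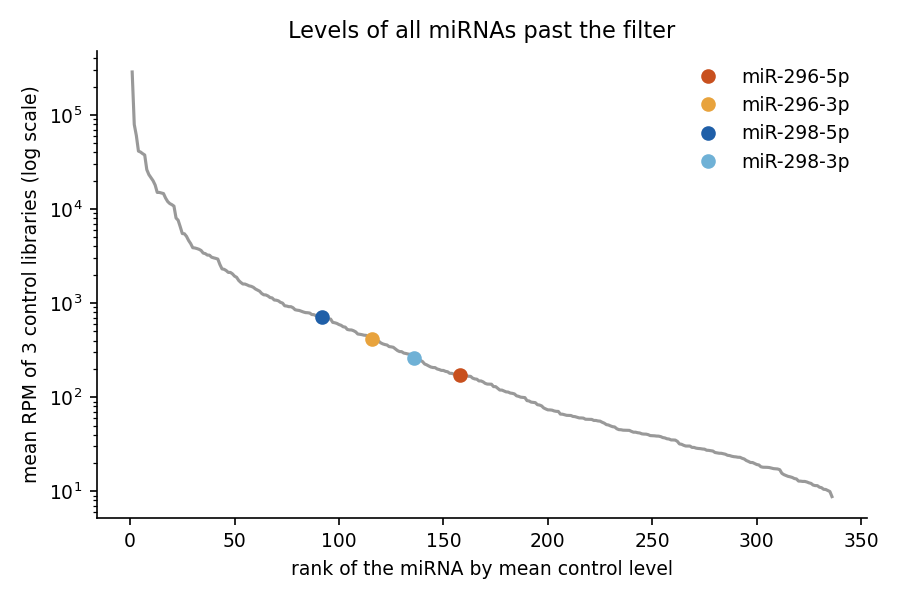
Mean RPM of the 3 control libraries on a log scale against the rank of each of the 336 tested miRNAs. The 4 arms sit between rank 92 and rank 158, with miR-298-5p highest at 710 RPM and miR-296-5p lowest at 173 RPM.

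MiR-146b-5p (732 ± 24 RPM) and miR-124-5p (692 ± 140 RPM) stood directly above and below miR-298-5p in control libraries (SD, n = 3 each). MiR-486 (424 ± 35 RPM) and miR-106b-5p (402 ± 14 RPM) enclosed miR-296-3p (SD, n = 3 each). MiR-344a-3p (272 ± 14 RPM) and miR-652-3p (262 ± 56 RPM) enclosed miR-298-3p, and miR-376b-3p (175 ± 7.2 RPM) and let-7c-2-3p (172 ± 49 RPM) enclosed miR-296-5p (SD, n = 3 each). None of these differences from the member exceeded the spread between replicates.

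Both arms of miR-296 had a higher mean after 20 min of BDNF, and the difference lay in replicates 2 and 3 and not in replicate 1. MiR-296-5p had 190, 139 and 191 RPM in control replicates 1 to 3 and 177, 220 and 258 RPM in the BDNF replicates. Its mean was 173 ± 30 RPM in control and 218 ± 41 RPM in BDNF libraries (SD, n = 3 each). The BDNF library of replicate 1 lay below 2 of the control libraries, so the groups overlapped. Relative to the control library of the same number, the ratio was 0.933, 1.58 and 1.35. MiR-296-3p had 477, 372 and 405 RPM in control replicates 1 to 3 and 476, 550 and 514 RPM in the BDNF replicates. Its mean was 418 ± 54 RPM in control and 514 ± 37 RPM in BDNF libraries (SD, n = 3 each). Here the groups overlapped by less than 1 RPM, through the nearly equal libraries of replicate 1. The ratios were 0.999, 1.48 and 1.27. The first control replicate was the highest control library for the 3p arm and close to the highest for the 5p arm.

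RPM depend on the few very abundant miRNAs of a library, and division by edgeR's TMM factors (0.928 to 1.08) raised the ratios of replicate 1, across equality for miR-296-3p but not for miR-296-5p. On that scale the ratio in replicate 1 was 0.999 for miR-296-5p and 1.07 for miR-296-3p. Replicates 2 and 3 gave 1.55 and 1.34 for the 5p arm and 1.45 and 1.27 for the 3p arm. The groups of miR-296-3p still overlapped on that scale, with 480 in control replicate 1 and 474 in BDNF replicate 3. The fitted log2 fold change (BDNF - control) was 0.35 (SE 0.15) for miR-296-5p and 0.32 (SE 0.13) for miR-296-3p, that is 1.28-fold and 1.25-fold. They ranked 7 and 9 from the top among 336. With the replicate number as a block the values were 0.35 (SE 0.12) and 0.33 (SE 0.09). The median size of the log2 fold change over all tested miRNAs was 0.09.

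The arms of miR-298 stayed close to equality in each replicate. MiR-298-5p had 586, 667 and 879 RPM in control replicates 1 to 3 and 593, 655 and 851 RPM in the BDNF replicates. The ratios were 1.01, 0.982 and 0.968, with a mean of 0.988 ± 0.022 (SD, n = 3). MiR-298-3p had 222, 241 and 322 RPM in control and 209, 237 and 318 RPM in BDNF replicates. Its ratios were 0.942, 0.983 and 0.986, with a mean of 0.970 ± 0.025 (SD, n = 3). The corresponding means were 1.29 ± 0.33 for miR-296-5p and 1.25 ± 0.24 for miR-296-3p (SD, n = 3 each), so the ratios of the miR-298 arms varied far less. The fitted log2 fold change was -0.002 (SE 0.15) for miR-298-5p and -0.02 (SE 0.15) for miR-298-3p. With the replicate block the standard errors fell to 0.07 for both, with log2 fold changes of 0.004 and -0.02.

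**Figure D2:**
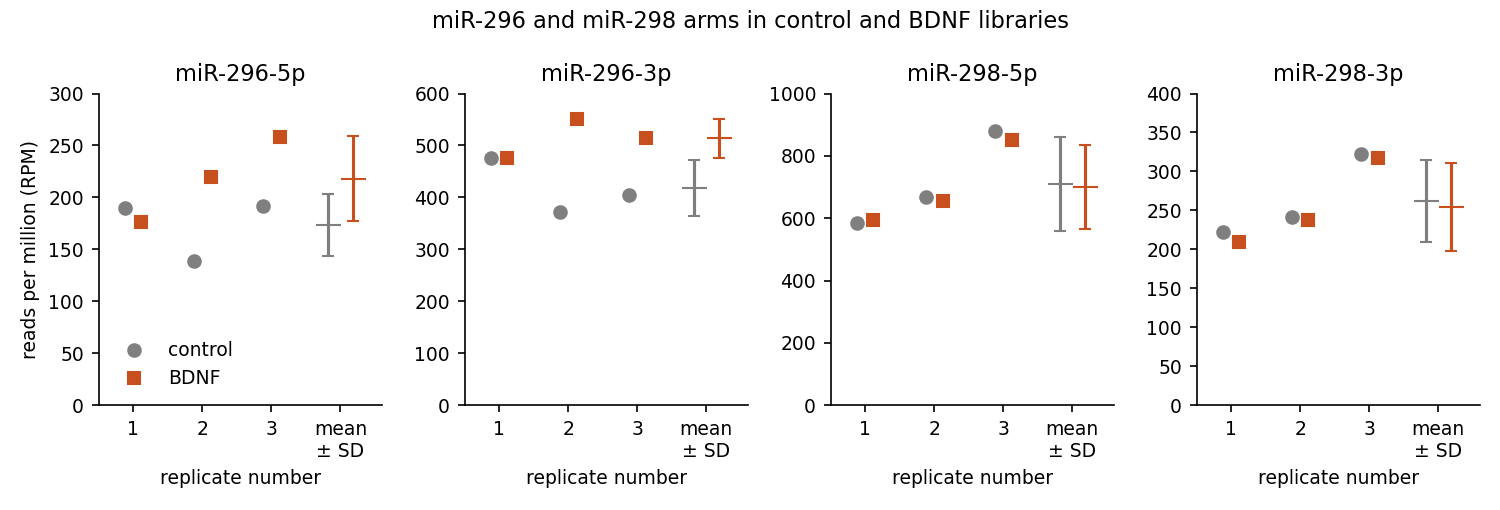
RPM of each arm in the control (circles) and BDNF (squares) library of each replicate number, with the mean and SD of 3 libraries at the right of each panel; each panel has its own axis from 0. BDNF libraries of miR-296 lie above their control in replicates 2 and 3, while control and BDNF libraries of miR-298 nearly coincide within each number.

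For context, edgeR's quasi-likelihood test called 10 of 336 miRNAs at an unadjusted P below 0.05 (2.98%), of which 5 were higher with BDNF (1.49%). Both arms of miR-296 were among these 5 and neither arm of miR-298 was, and nothing is read from this because the members were chosen on it. None of the 4 members passed with column sums in place of TMM, nor without control replicate 2, control replicate 3 or BDNF replicate 2. No miRNA had a Benjamini-Hochberg adjusted P below 0.05 in edgeR (0%), nor in DESeq2, which called 12 at the unadjusted threshold. The replicate block raised the count at the unadjusted threshold to 69 (20.5%), again without any at the adjusted threshold, and 26 of them were higher (7.74%), both miR-296 arms included. None of the 4 members had all BDNF libraries above all control libraries in RPM, which 0.893% of the tested miRNAs did. None was higher in all 3 replicate numbers in RPM (background 9.23%), and miR-296-3p alone was so after TMM normalization (background 16.1%). With 3 libraries against 3, an exact permutation test cannot go below P = 0.1.

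The control and BDNF libraries of one number can also be used to ask how far the numbered cultures differ. The choice of members did not use the mean level of each number. The test, however, weighs these means against how unevenly BDNF and control differed across numbers, which was seen in choosing the members. Which members passed is therefore a description. In a fit with treatment and replicate number, both arms of miR-298 differed between numbers and neither arm of miR-296 passed the test. MiR-298-5p averaged 614, 687 and 799 normalized RPM (RPM divided by the TMM factor) over both libraries of replicates 1, 2 and 3, a log2 difference of 0.38 between replicates 3 and 1. Its adjusted P was 0.018 in edgeR's quasi-likelihood F test of all replicate numbers together, adjusted over 336 miRNAs. MiR-298-3p averaged 225, 249 and 295 normalized RPM, a log2 difference of 0.39, with an adjusted P of 0.013 in the same edgeR test. Both libraries of replicate 3 were the highest of their condition for both miR-298 arms, and neither call remained without replicate 3, with adjusted P of 0.34 for miR-298-5p and 0.46 for miR-298-3p. Without replicate 1, the adjusted P of miR-298-5p was 0.051.

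MiR-296-5p averaged 191, 186 and 208 normalized RPM in replicates 1 to 3 and miR-296-3p averaged 497, 479 and 424 normalized RPM. Their adjusted P in the edgeR test of the replicate number was 0.59 and 0.21. Over all tested miRNAs this test called 48.2%, so 2 called members of 4 is a share near the background. The median range between replicate numbers over all tested miRNAs was 0.34 on the log2 scale, so the miR-298 arms varied about as much as a typical miRNA. Whether the replicate differences of miR-298 exceed those of miR-296 was not tested.

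Base composition moved with the replicate number. The median log2 difference between replicates 3 and 1 was -0.41 for the 59 miRNAs with a GC content below 40%. It was -0.0007 for the 119 miRNAs from 40% to below 50%. The 88 miRNAs from 50% to below 60% and the 41 miRNAs at 60% or more both had 0.14, without a further rise. With a GC correction, chosen after seeing the data, the adjusted P of the replicate number in the edgeR test was 0.034 for miR-298-3p and 0.15 for miR-298-5p, so the call for the 5p arm was lost. MiR-296-3p passed under the same correction, with 0.032. This fit called 128 of 307 miRNAs (41.7%), so 2 called members of 4 is again near the background. Between treatments the same GC classes, from lowest to highest, had median log2 fold changes of 0.01, -0.04, 0.01 and 0.04. The block with GC correction left log2 fold changes of 0.29 (SE 0.10) for miR-296-5p and 0.24 (SE 0.08) for miR-296-3p.

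**Figure D3:**
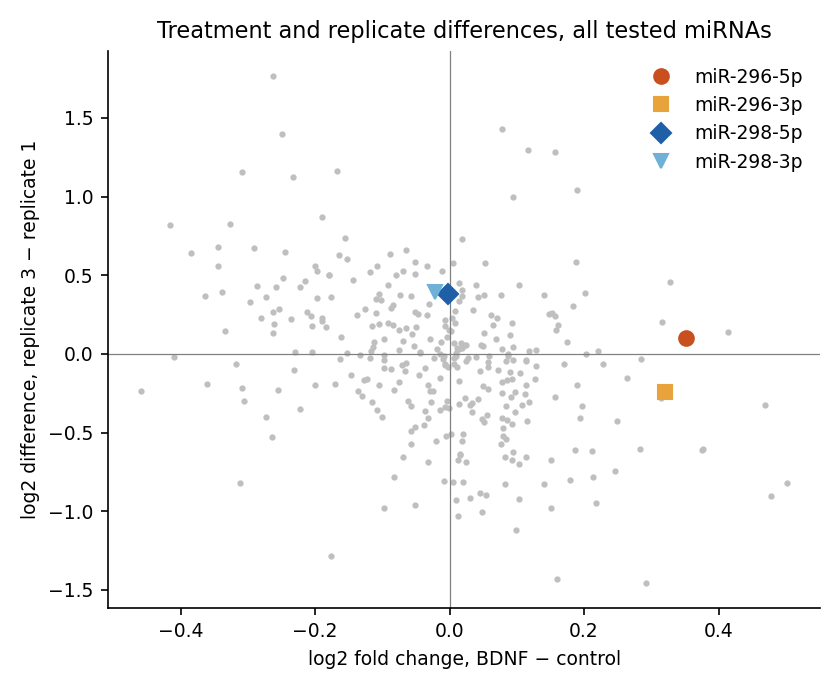
Log2 difference between replicates 3 and 1 against the log2 fold change (BDNF - control) for the 336 tested miRNAs (grey) and the 4 arms. The miR-296 arms lie at 0.35 and 0.32 on the treatment axis, whereas the miR-298 arms lie near 0 there and at 0.38 and 0.39 on the replicate axis.

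The balance of 5p and 3p reads within a hairpin does not depend on library size. Mir296 gave mostly 3p reads and Mir298 mostly 5p reads. For Mir296, the 5p share was 28.5%, 27.2% and 32.1% in control replicates 1 to 3 and 27.1%, 28.5% and 33.4% in the BDNF replicates. Both libraries of replicate 3 were the highest. Their exact (Clopper-Pearson) 95% intervals, 30.9% to 33.3% and 32.5% to 34.4%, lay above the upper bound of every other library, at most 29.5%. The intervals cover counting error only, since reads without molecular identifiers are not independent molecules.

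For Mir298, the 5p share was 72.5%, 73.4% and 73.2% in control replicates 1 to 3 and 73.9%, 73.4% and 72.8% in the BDNF replicates. All 6 exact intervals overlapped, with the highest lower bound at 73.0% and the lowest upper bound at 73.4%. On the log2 scale the 5p/3p ratio of Mir298 spanned 0.104 over the 6 libraries, the smallest span among 83 hairpins with both arms past the filter, whose median span was 0.61. That of Mir296 spanned 0.43, rank 24 from the smallest. These spans include counting error, which is larger for hairpins with fewer reads, and the ranks were not matched for read level. The mean log2 5p/3p ratio of Mir296 was -1.28 ± 0.18 in control and -1.25 ± 0.23 in BDNF libraries (SD, n = 3 each). That of Mir298 was 1.44 ± 0.04 in control and 1.46 ± 0.04 in BDNF libraries (SD, n = 3 each). The changes of 0.03 for both hairpins were within the spread between replicates and below the median size of 0.13 over the 83 hairpins.

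**Figure D4:**
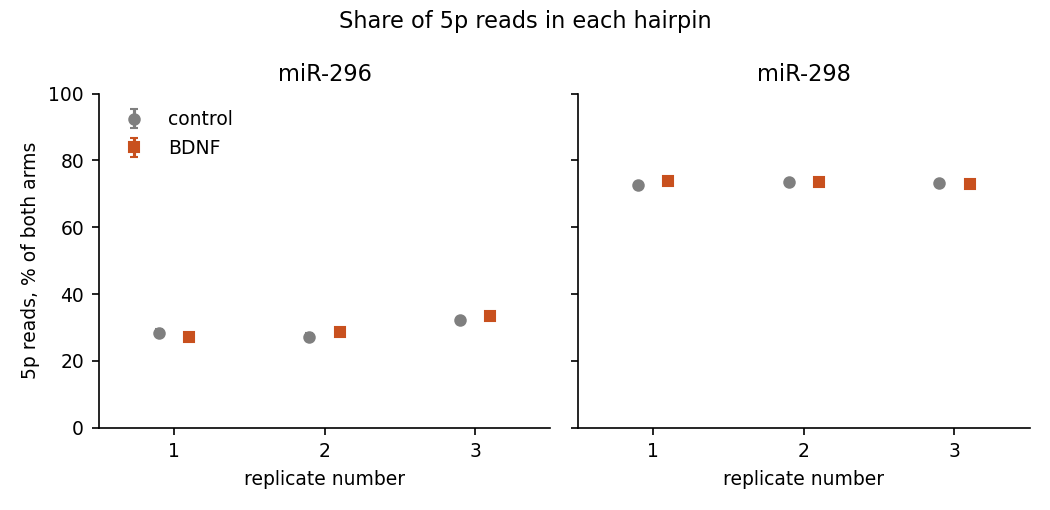
Share of 5p reads among the reads of both arms for each library, with exact 95% intervals (counting error only, mostly smaller than the symbols). The Mir296 libraries lie between 27.1% and 33.4%, and the Mir298 libraries between 72.5% and 73.9%.

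The reads of both arms were summed to compare the neighbouring hairpins. Mir296 had 666, 511 and 596 RPM in control replicates 1 to 3 and 653, 770 and 773 RPM in the BDNF replicates. Mir298 had 808, 908 and 1201 RPM in control and 802, 892 and 1168 RPM in BDNF replicates. There were thus 1.21, 1.78 and 2.01 reads of Mir298 for each read of Mir296 in control replicates, and 1.23, 1.16 and 1.51 in BDNF replicates. Relative to its control, the BDNF library had 1.01 times this ratio in replicate 1, 0.652 times in replicate 2 and 0.751 times in replicate 3. This ratio is free of library size and of TMM, and the BDNF and control libraries differed in it in replicates 2 and 3 but hardly in replicate 1. Its denominator is miR-296, chosen for its rise with BDNF, so the ratio is a description and not separate evidence.

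**Figure D5:**
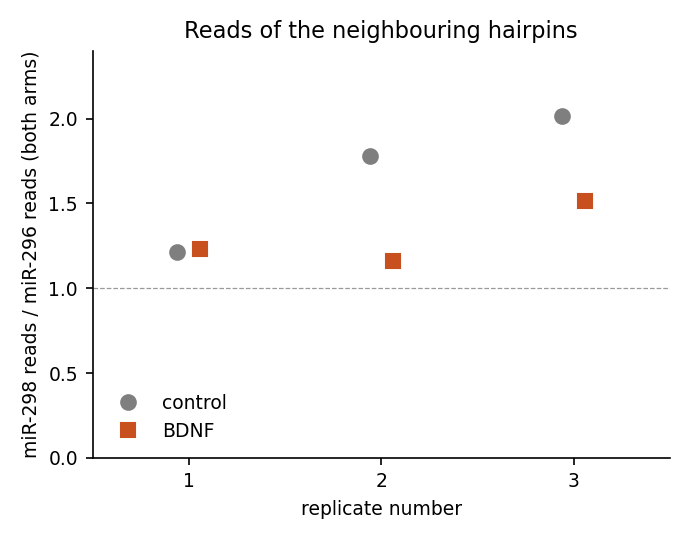
Reads of Mir298 divided by reads of Mir296, both arms summed, for the control (circles) and BDNF (squares) library of each replicate number; the dashed line marks equal reads. The libraries of replicate 1 coincide near 1.2, and in replicates 2 and 3 the BDNF library lies below its control.

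Across the 6 libraries the arms of miR-298 followed each other more closely than those of miR-296. Pearson's r of log2 RPM was 0.991 between miR-298-5p and miR-298-3p and 0.80 between miR-296-5p and miR-296-3p (0.979 and 0.72 after TMM normalization). The values for miR-296 include the difference between conditions on which its arms were chosen, and for deviations from the group means they were 0.66 in RPM and 0.33 after TMM normalization. Without control replicate 2 r between the miR-296 arms in RPM was 0.56. Across hairpins it was 0.43 for both 5p arms and -0.14 for both 3p arms, and 0.08 and -0.55 after TMM normalization. These values describe 6 libraries that share replicate numbers and scaling, and they are given without a P-value. For miR-298-5p, the most similar of the 335 other tested miRNAs was miR-298-3p, followed by miR-541-5p (r = 0.991) of the imprinted Dlk1-Dio3 cluster and miR-132-3p (r = 0.987), which is induced by neuronal activity through CREB. MiR-298-3p was most similar to miR-532-3p (r = 0.997), miR-541-5p (r = 0.996) and miR-132-3p (r = 0.992). The log2 difference between replicates 3 and 1 was 1.40 for miR-132-3p, 0.66 for miR-532-3p and 0.25 for miR-541-5p.

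For miR-296-5p, the opposite arm came only at place 20 in similarity. MiR-151-3p (r = 0.996), miR-342-5p (r = 0.980) and miR-770-3p (r = 0.972) came first. After TMM normalization the values for the same 3 were 0.72, 0.87 and 0.94, so the value for miR-151-3p changed most with the scaling. MiR-296-3p was most similar to miR-17-2-3p (r = 0.963), miR-99a-3p (r = 0.917) and miR-300-3p (r = 0.902).

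Other imprinted miRNAs and known regulators of Bace1 and App were read from fixed lists. Of the miRNAs of other imprinted loci, 4 were listed and only miR-335, from an intron of Mest, passed the filter. It had 288 ± 24 RPM in control and 234 ± 43 RPM in BDNF libraries (SD, n = 3 each), with a log2 fold change of -0.26 (SE 0.20), and was lower at the unadjusted threshold in edgeR with the replicate block but not without it. MiR-483-5p, miR-483-3p and miR-675-5p had at most 0.117 RPM in the mean of either condition. In the Dlk1-Dio3 cluster, 62 of 83 listed miRNAs were tested, of which 1 was higher and 1 lower at the unadjusted threshold in edgeR and none at the adjusted one, with a median log2 fold change of -0.002. With the replicate block, 7 were higher and 6 lower at the unadjusted threshold, a share near the 20.5% called over all tested miRNAs in that fit. Of 12 regulators of Bace1 or App, 10 were tested and none passed either threshold, with a median log2 fold change of -0.03, and 1 was lower at the unadjusted threshold with the block. The median over all tested miRNAs was -0.002.

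The cell types were checked through miRNAs known to mark them. The neuronal miRNAs miR-9a-5p, miR-128-3p, miR-124-3p and miR-137-3p summed to between 335760 and 393322 RPM in control and between 377303 and 412720 RPM in BDNF libraries. Most of this sum was miR-9a-5p, with 286144 ± 31825 RPM in control libraries, while miR-124-3p had 5126 ± 432 RPM (SD, n = 3 each). Endothelial and vascular miRNAs (miR-126a-3p, miR-126a-5p, miR-143-3p and miR-145-5p) summed to between 143 and 204 RPM in control and between 133 and 196 RPM in BDNF libraries. Of these, 3 were tested and none passed the unadjusted threshold (1 was lower with the replicate block), with a median log2 fold change of -0.06. MiR-126a-3p, the defining endothelial miRNA of the list, had 70.7 ± 7.7 RPM in control and 66.6 ± 12 RPM in BDNF libraries (SD, n = 3 each). Blood and microglial miRNAs summed to at most 7.18 RPM in any library. The glial list summed to between 5617 and 7529 RPM over all libraries, nearly all of it miR-21-5p, which other cells also express. Over both libraries of a number, the glial sum averaged 7430, 6868 and 5634 RPM in replicates 1, 2 and 3. The vascular sum averaged 200, 138 and 153.6 RPM and the neuronal sum 399182, 395471 and 356531 RPM in the same order. Within the neuronal list, the fitted log2 difference between replicates 3 and 1 was -0.43 for miR-9a-5p. It was -0.05 for miR-128-3p and -0.04 for both miR-124-3p and miR-137-3p, so the lower neuronal sum of replicate 3 lay mostly in miR-9a-5p. The part of these cell types in the replicate values of miR-298 and in the miR-296 values was not tested. In bulk libraries, fewer cells of a type and less RNA per cell cannot be told apart.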

How the data were processed

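Small RNA libraries of 3 control and 3 BDNF cultures were made by the authors with the NEBNext small RNA kit and sequenced in a single lane. The authors trimmed the adapter, filtered by quality, dropped reads under 15 nucleotides and assigned the rest with Miraligner (1 mismatch, 3 nucleotides of end variation) to rat miRNAs of miRBase v21. The deposited values are raw read counts per mature miRNA, summed over isomiRs. How reads matching several miRNAs were handled is not given in the sources used here. A legend of the study gives a day less in vitro than the labels.

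RPM were computed from column sums. Counts were tested with edgeR 4.0.16 in R 4.3.3 (TMM, quasi-likelihood, no block, mean of at least 10 RPM in either condition), with Benjamini-Hochberg adjustment. The replicate number was tested by an F test in a model with treatment. The test was run on simulated counts first. DESeq2 1.42.0, other scalings and filters, the block, a GC correction (lowess, span 0.5) and leave-one-out fits were alternatives. Hairpins were folded with RNAfold 2.7.2. Sequences came from RefSeq (GRCr8), which held 583 of 649 names and all 4 members. The members and lists were chosen with earlier results of these data known. Other miRNAs were named by rule: the 3 with the highest Pearson r to each member, the neighbours in control level and at most 4 of each list, the most abundant.

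Deviations from the group means correlated at 0.80, 0.48 and 0.89 between control and BDNF libraries of replicates 1, 2 and 3, so the numbers were taken to pair the libraries. No pair of libraries of one condition was as close as sampling noise (chi-square per degree of freedom of at least 220).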

Additional observations from a re-analysis of the deposited data

How the results depend on the processing

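The log2 fold changes of the 4 members moved by less than the spread between replicates under all 8 other settings of the fit (replicate block, block with GC correction, DESeq2, its size factors, library size only, upper quartile, no filter, 50 RPM filter). They ran from 0.29 to 0.38 for miR-296-5p and from 0.24 to 0.35 for miR-296-3p. Those of miR-298-5p (-0.05 to 0.03) and miR-298-3p (-0.04 to 0.01) took both signs. With single libraries left out the ranges were 0.25 to 0.46 for miR-296-5p, 0.25 to 0.47 for miR-296-3p, -0.09 to 0.13 for miR-298-5p and -0.14 to 0.11 for miR-298-3p. The members were chosen on this contrast, so the number of them past the unadjusted threshold is a description and tests nothing. It was 2 in the fit as reported, 0 with library size only, 1 with upper quartile scaling and 0 to 2 with single libraries left out. The value was 0 without control replicate 2, control replicate 3 or BDNF replicate 2. The number over all tested miRNAs, 10 as reported, was 69 with the replicate block, 64 with block and GC correction, 6 with library size only, 6 with the 50 RPM filter, which tests fewer miRNAs, and 3 to 32 with single libraries left out, the highest without control replicate 1. The same members were past the threshold with the block. At the adjusted threshold the number was 0 under all of these settings. The cause of these shifts was not tested.

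For the replicate number, 162 miRNAs passed as reported, and 69 to 183 with one number left out, the fewest without replicate 3 and 80 without replicate 1. The adjusted P of edgeR's F test for miR-298-5p was 0.15 with the added GC correction and ranged from 0.0021 to 0.34 with one number left out. That of miR-298-3p ranged from 0.0024 to 0.46. MiR-296-3p had 0.032 with the GC correction and 0.064 to 0.65 with one number left out, and miR-296-5p did not pass under any setting tried. The change in log2 5p/3p ratio kept within the spread between replicates, from -0.10 to 0.13 for miR-296 and from 0.01 to 0.05 for miR-298 with single libraries left out. Pearson's r between the miR-296 arms was 0.66 for deviations from the group means (0.33 after TMM normalization), and 0.56 to 0.88 with single libraries left out, the lowest without control replicate 2.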
